A study of Sus scrofa with 2 samples.

Results

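The Ensembl small RNAs described here are every feature of either library that has an Ensembl transcript identifier and a deposited length of at least 91 and under 120 bases. There were 110 of them among 88173 features, 400 of which were Ensembl transcripts. The rule used length and identifier alone, and no measured value. RNA was taken from ovaries of Landrace x Yorkshire crossbred gilts, young female pigs, 30 or 90 days after birth, in a study of long non-coding RNA during ovary development. All 6 animals had the same housing and the same free access to feed, and equal amounts of RNA from the animals of an age group were pooled before 1 library was made per age. How many of the 6 entered each pool is not stated. With 1 library per age there is no test between the ages, no p-value and no replicate check, and every difference describes these 2 pools. Assigned reads numbered about 9.4e+06 in the 30-day library and 1.1e+07 in the 90-day library. Levels are given as CPM, reads scaled to the library total, and a single read was worth 0.107 CPM in the former and 0.0934 CPM in the latter.

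RNAs of this size are part of the basic machinery of the cell. U6 and U5 small nuclear RNAs are parts of the spliceosome, 5S ribosomal RNA is part of the large ribosomal subunit, Y RNAs bind the Ro60 protein, and short small nucleolar RNAs guide chemical modification of other RNAs. Most are not polyadenylated, and in mammalian genomes U6, Y RNA and 5S genes are accompanied by many copies and pseudogenes. Gene names are not paired with the identifiers in the files, and 0 of the 110 identifiers occurred in the gene name tables. The size classes named here therefore could not be checked against any member, and the transcripts are described by length. No sequence is printed, and ovarian marker genes could not be looked up.

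The 110 transcripts fell into 12 that had at least 16 reads in a library and 98 that had at most 6 reads in either. The abundant few carried nearly all the signal at 30 days and much less at 90 days. All 110 together had 2747 reads at 30 days, or 293 CPM, and 377 reads at 90 days, or 35.2 CPM. The ratio of 90 days over 30 days was 0.120 (95% interval 0.108 to 0.134), an 8.32-fold lower level at 90 days. Intervals here and below are exact and cover counting error only, since reads that carry no molecular identifier are not separate molecules and the animals were pooled. In RNA of a whole ovary, fewer cells of a type and less RNA per cell cannot be told apart. Depletion and size selection of the libraries are not given. With 1 library per age, a difference in either cannot be told from age. Of the reads of Ensembl transcripts under 200 bases, these transcripts held 2.36% at 30 days (2.27 to 2.45, Clopper-Pearson) and 0.629% at 90 days (0.568 to 0.696).

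**Figure D1:**
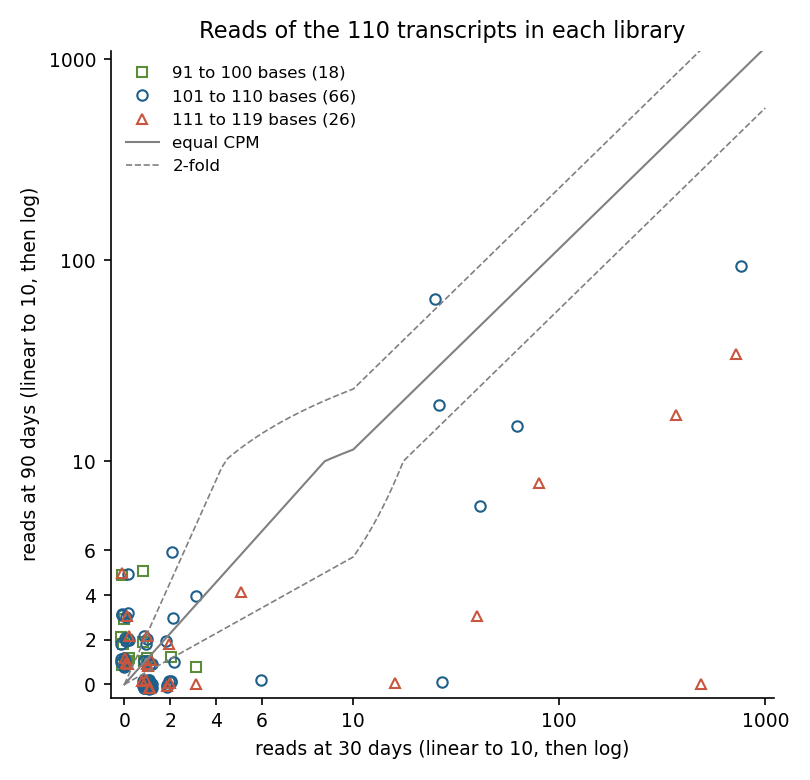
Reads of each of the 110 transcripts at 30 days (x axis) and 90 days (y axis), on axes that are linear up to 10 reads and logarithmic above; points of up to 6 reads are shifted slightly so that they do not hide each other. Each symbol is 1 transcript, marked by length class; the solid line marks equal CPM and the dashed lines a 2-fold difference. The crowd at 6 reads or fewer lies on both sides of the equal line, and nearly all transcripts with more reads lie below it.

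The reads were concentrated in a handful of transcripts. The 4 with the most summed CPM held 85.1% of the members' reads at 30 days (83.7 to 86.4, Clopper-Pearson) and 38.2% at 90 days (33.3 to 43.3). These are the transcript of 102 bases, one of the 117-base transcripts, one of 113 bases and one of 116 bases. Their summed reads went from 2337 in the 30-day library to 144 in the 90-day library, with a ratio of 0.0540 (0.0453 to 0.0639). All remaining members had 410 and 233 reads, with a ratio of 0.498 (0.422 to 0.586). The summed level therefore describes mainly these 4 transcripts. They were picked by summed CPM, 249 CPM at 30 days and 13.5 CPM at 90 days, so both ratios follow in part from that choice.

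The ages were compared transcript by transcript with log2((CPM at 90 days + 1)/(CPM at 30 days + 1)), for features that reached 1 CPM in either library, and a value of at least 1 or at most -1 was counted as a 2-fold difference. This is a rule of size, and the pseudocount of 1 CPM understates the change of low features. Exactly 12 of the 110 transcripts could be compared. Of these, 10 were at least 2-fold lower at 90 days, 0 were at least 2-fold higher and 2 lay between. Over all features compared by the same rule, 36.6% were lower and 14.6% were higher. All 12 reached 1 CPM at 30 days. For 6 of them that was the only library in which they did so, and none reached it at 90 days alone (0), so a lower value was built into how those 6 entered the comparison. Among the 6 that reached 1 CPM in both libraries, 4 were lower and 2 lay between. The share of lower ones among all features that reached 1 CPM in both libraries was not computed. The 36.6% also holds features that passed in a single library, so it is no matched background for these 6. The median log2 fold of the 12 was -2.00, beside -0.49 over all features compared.

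**Figure D2:**
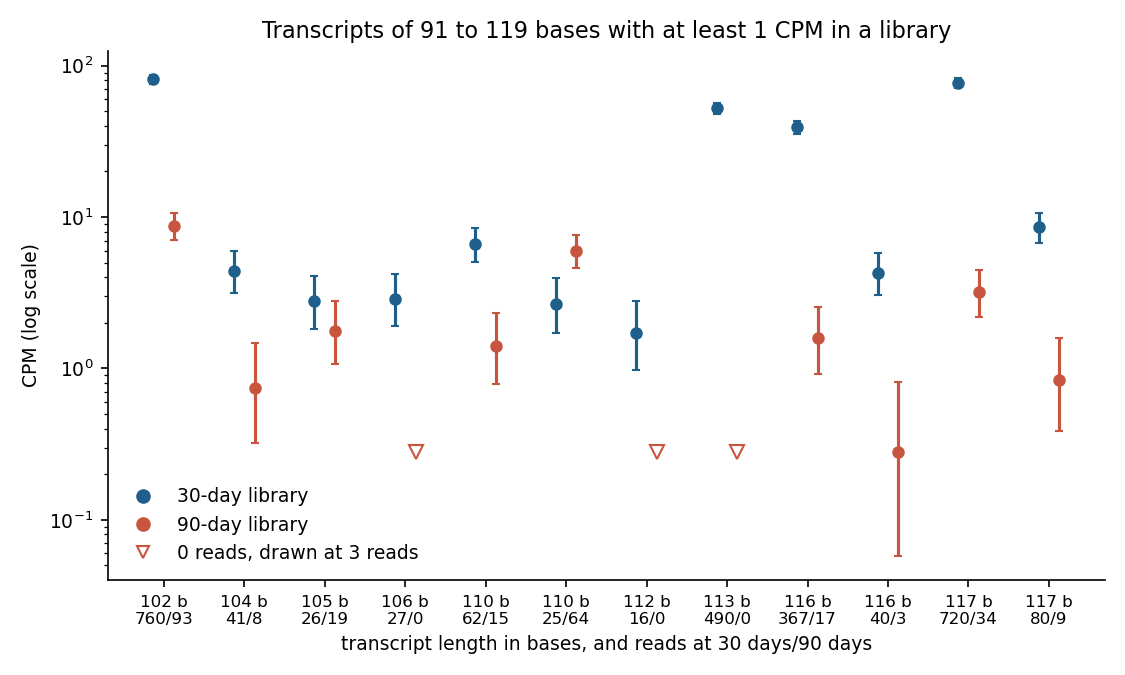
Level of the 12 transcripts with at least 1 CPM in a library, as CPM on a log axis, with exact 95% Poisson intervals from the reads. The x axis gives each transcript's length and its reads at 30 and 90 days; an open triangle marks 0 reads, drawn at the level of 3 reads. Of the 12, 10 lie at least 2-fold lower in the 90-day library, and the second 110-base transcript, with 25 and 64 reads, is the one that stands higher there.

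The only 102-base transcript ranked first of the 110 in both libraries. It had 760 reads at 30 days, 81.1 CPM (75.4 to 87.0), and 93 reads at 90 days, 8.69 CPM (7.01 to 10.6). Its 90-day level was 9.33-fold lower (7.52 to 11.7), and the intervals of its levels do not overlap. Per length its level was 795 RPKM (reads per kilobase of length, scaled to the library total) at 30 days and 85.2 RPKM at 90 days. By RPKM it was number 28 of all features at 30 days and number 138 at 90 days. The 102-base transcript thus kept its first place among the 110, with a lower place among all features at 90 days.

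Transcripts of 116 and 117 bases made up the largest block of lower reads. There were 7 of them, with 1212 reads in the 30-day and 64 in the 90-day library and a ratio of 0.0463 (0.0354 to 0.0595). Of the 7, 4 could be compared and all 4 were lower at 90 days, where 36.6% of all features compared were lower. The other 3 had 5 reads in all at 30 days and 1 at 90 days. Both lengths were picked as those over 110 bases with at least 2 transcripts compared. At each length the less abundant compared transcript reached 1 CPM at 30 days alone, so its lower value was built in.
ENSSSCT00000020267, of 117 bases, had 720 reads in the younger pool and 34 in the older, 76.8 CPM (71.3 to 82.6) and 3.18 CPM (2.20 to 4.44). It was 24.2-fold lower at 90 days (17.1 to 35.2), with a log2 fold of -4.22, the second lowest of the 12. The more abundant 116-base transcript had 367 and 17 reads and was 24.6-fold lower (15.2 to 42.8), which cannot be told from the former at this depth. The second 117-base transcript had 80 and 9 reads and was 10.1-fold lower (5.09 to 23.0). The second 116-base transcript had 40 and 3 reads and was 15.2-fold lower (4.85 to 76.9). The intervals of these 4 folds overlap one another. Whether they are copies of one gene is not known, since neither names nor sequences came with the files, and copies that share sequence would divide or lose reads in a count of uniquely assigned reads.

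Some transcripts were read in the 30-day library and not at all in the 90-day library. ENSSSCT00000020970, of 113 bases, had 490 reads at 30 days, 52.3 CPM (47.7 to 57.1), and none at 90 days. The floor for a count of 0 was set at 3 reads per library, 0.280 CPM at 90 days, and against it the transcript was at least 186-fold lower. Its log2 fold of -5.73 was the lowest of the 12 but depends on the pseudocount and is no bound. Per length it stood at 462 RPKM at 30 days, number 39 of all features. A 106-base transcript with 27 and 0 reads was at least 10.3-fold lower against the same floor. A 112-base transcript with 16 and 0 reads was at least 6.09-fold lower. These bounds take the reads at 30 days as exact and hold for 1 transcript taken alone. The other 4 transcripts of 113 bases had 6 reads in all in each library, so the difference at that length lay in a single transcript.

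The remaining compared transcripts had 104, 105 and 110 bases and smaller differences. The compared 104-base transcript had 41 and 8 reads and was 5.85-fold lower (2.71 to 14.5). One 110-base transcript had 62 and 15 reads and was 4.72-fold lower (2.65 to 8.93). Scaled to all assigned reads, the exact interval of each of the 10 lower transcripts lay wholly beyond 2-fold. This held for 10 with TMM and 9 with median-of-ratios factors. It held for 8 with upper-quartile factors, and for 8 when the 4 most abundant features were left out of the total. In both cases the intervals of this 110-base and the 104-base transcript reached within 2-fold. These 10 were picked as lower from the same reads, and 6 of them passed the filter at 30 days alone, so their intervals are no separate check. The share of all features compared with such an interval was not computed.

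Both transcripts that lay between had the largest log2 folds of the 12. ENSSSCT00000020459, of 110 bases, had 25 reads in the younger pool and 64 in the older, 2.67 CPM (1.73 to 3.94) and 5.98 CPM (4.60 to 7.63). Its ratio of 90 days over 30 days was 2.24 (1.39 to 3.72), while the log2 fold with the pseudocount was 0.93, just short of the rule. It was the one compared transcript with a higher level at 90 days, and it moved from number 1914 to number 265 of all features by RPKM, 24.2 and 54.3 RPKM. With TMM factors its log2 fold was 1.23, and with a pseudocount of 0.1 CPM it was 1.14, so its side of the 2-fold rule depended on these choices. ENSSSCT00000019792, of 105 bases, had 26 and 19 reads, a ratio of 0.640 (0.335 to 1.20) and a log2 fold of -0.44. At this depth its difference between the pools was not detectable. The 110-base pair moved apart: the transcripts had 62 and 25 reads at 30 days but 15 and 64 at 90 days, so that their order turned.

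The 98 transcripts that did not reach 1 CPM gave no such difference as a sum. They had 93 and 115 reads, and their ratio was 1.08 (0.817 to 1.44), beside 0.0865 (0.0759 to 0.0982) for the 12 that reached it. The 12 were set apart by their level, all of them at 30 days, so this contrast follows in part from the rule that made it. Of the 98, 81 had at most 2 reads in either library. There were 25 read in both libraries, 40 at 30 days alone and 33 at 90 days alone. With TMM factors the ratio of the 98 was 1.42 (1.07 to 1.88), so whether its interval held 1 depended on the scaling.

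Reading in one library alone was mostly a matter of 1 to 3 reads. Of all 110 transcripts, 34 were read in both libraries (30.9%), 43 at 30 days alone and 33 at 90 days alone. Over all 88173 features, 83.1% were read in both libraries, 9998 at 30 days alone and 4929 at 90 days alone. Of the 76 read in one library alone, 69 had at most 3 reads there, the number that a count of 0 allows in the other. Another 4 had 4 to 9 reads, and the last 3 were the transcripts of 113, 106 and 112 bases described above. No transcript read at 90 days alone had more than 5 reads. The median transcript listed had 1 read at 30 days and 2 at 90 days, against 20 and 18 over all features. These reads are not scaled for length, and the median length was 107 bases here and 853 bases over all features. Median RPKM of those listed was 1.03 against 2.64 over all features at 30 days, and 1.75 against 1.90 at 90 days. The shares read in both libraries are likewise not scaled for length.

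The most common lengths held few of the reads. The most common length was 107 bases, with 26 transcripts, followed by 106 bases with 12. The 26 transcripts of 107 bases had 20 reads in all in each library, none reached 1 CPM (0), and 19 had no more than 1 read in either library. The most reads of any of them was 5. Of the 12 transcripts of 106 bases, the one with 27 and 0 reads was the exception, and the other 11 had 9 and 11 reads. In contrast, the 102-base length had 1 transcript and 760 reads at 30 days. The counts are of uniquely assigned reads, so transcripts with near-identical copies elsewhere can be undercounted, and how far this touched the 107-base group was not tested.

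**Figure D3:**
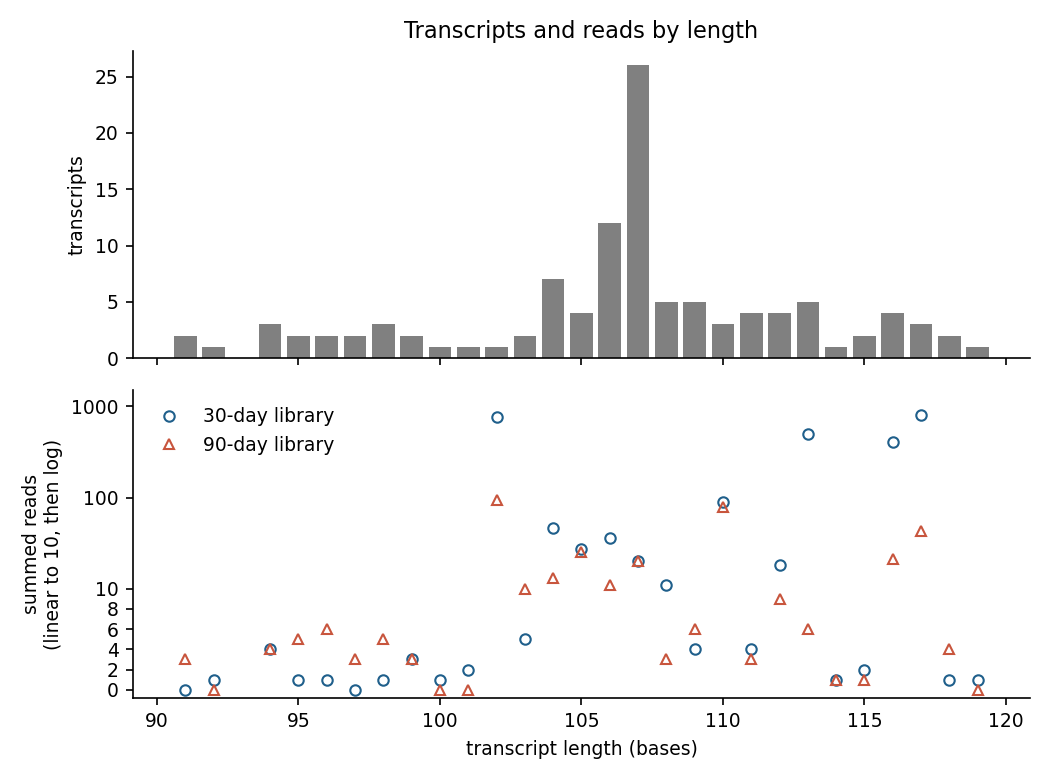
Number of transcripts of each length (upper panel, bars) and their summed reads in each library (lower panel, points, linear up to 10 reads and logarithmic above). The peak of 26 transcripts at 107 bases has 20 reads in each library, and the highest read sums stand at 102, 113, 116 and 117 bases in the 30-day library.

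By length class, the lower level at 90 days was found in the summed reads of lengths above 100 bases. The 26 transcripts of over 110 bases had 1735 and 88 reads, a ratio of 0.0444 (0.0354 to 0.0550), and all 6 compared were lower, where 36.6% of all features compared were. Of these 6, the 112-base and 113-base transcripts had 0 reads at 90 days. The less abundant 116-base and 117-base ones had 0.280 and 0.841 CPM there. These passed the filter at 30 days alone, so a lower value was built in. The 20 transcripts of over 110 bases under 1 CPM had a ratio of 0.995 (0.539 to 1.85). The 66 transcripts of over 100 and up to 110 bases had 1000 and 260 reads, a ratio of 0.228 (0.198 to 0.261), with 4 lower of 6 compared. Here the compared 104-base and 106-base transcripts, with 0.747 and 0 CPM at 90 days, also passed at 30 days alone. The 102-base transcript alone held 760 of the 1000 reads, and without it the ratio was 0.609 (0.497 to 0.746). The 60 of this class under 1 CPM had a ratio of 0.905 (0.623 to 1.32). The 18 transcripts of 91 to 100 bases had 12 and 29 reads, a ratio of 2.12 (1.05 to 4.55), and 0 of them could be compared. In this shortest class 11 transcripts had the higher CPM at 90 days and 7 at 30 days. The class rests on few reads: without the 2 transcripts that had 5 reads each at 90 days, the ratio was 1.51 (0.684 to 3.52). The members nearest the limits of the length rule were faint. The 2 transcripts of 91 bases had 0 and 3 reads, and the single longest transcript had 1 and 0. Just outside, the 2 transcripts of 120 bases had 3 and 0 reads, and no Ensembl transcript of 90 bases was listed (0).

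The deposited coverage showed where reads lay within these transcripts. Every feature with a single read, 1806 at 30 days and 2439 at 90 days over the whole catalogue, was covered over 90 bases (the deposited percent times the length, within its rounding). That includes 47 of the 110 transcripts at 30 days and 28 at 90 days. Counted reads therefore spanned 90 bases and lay wholly inside the feature, and a transcript of 91 bases offers 2 start positions while the longest offers 30. Any 2 such reads on a transcript this short overlap, so the covered length gives the span of start positions used. The 102-base transcript was covered over 95 bases at 30 days, so its 760 reads spanned 6 of 13 start positions, and over 93 bases at 90 days, so its 93 reads spanned 4. The 117-base transcript with 720 reads spanned 19 of 28 positions at 30 days and 8 at 90 days with 34 reads. The 113-base transcript with 490 reads spanned 16 of 24, and the 106-base transcript spanned 16 of 17 with only 27 reads. More reads did not always go with a wider span, as the 102-base and the 106-base transcript show. In neither library was any of the 110 covered over its whole length (0 transcripts).

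**Figure D4:**
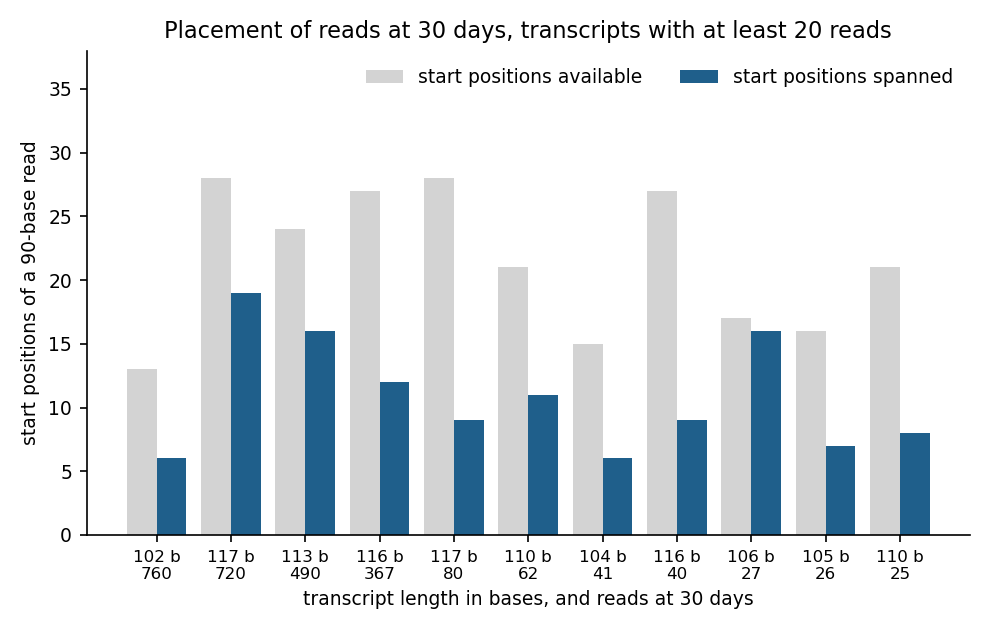
Start positions that a 90-base read has on each transcript (grey bars) and the span of start positions used at 30 days (blue bars), for the 11 transcripts with at least 20 reads, ordered by reads. The 102-base transcript with 760 reads spans 6 of 13 positions, and the 106-base transcript with 27 reads spans 16 of 17.

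Since the number of start positions is far smaller than the length, levels per length change when they are given per start position. The 102-base transcript stood 1.21 times above the 117-base transcript by RPKM at 30 days, and 2.27 times above it by CPM per start position. The scale of the comparison between transcripts is affected, while ratios between the ages are not.

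Compared with the other short Ensembl transcripts, a smaller share of those of 91 to under 120 bases reached 1 CPM. Their summed reads had the lowest ratio, and this rested mainly on the 4 most abundant members. At least 1 CPM in a library was reached by 10.9% of the 110, by 50.0% of the 142 transcripts of 120 to under 150 bases and by 62.2% of the 37 of 150 to under 200 bases. The summed ratio of 90 days over 30 days was 0.885 (0.869 to 0.901) in the former class and 0.347 (0.342 to 0.351) in the latter. It was 0.120 for all 110 members and 0.498 (0.422 to 0.586) for the 106 without these 4. The 4 were picked by summed CPM, most of it at 30 days, so leaving them out raises the ratio in part by construction. The longer classes kept their most abundant transcripts, so the 0.498 cannot be ranked against them. Of the transcripts compared, 15 of 71 were lower at 120 to under 150 bases and 8 of 23 at 150 to under 200 bases. This stands against 10 of 12 here and 36.6% of all features compared. Of the 12, 6 passed the filter through the 30-day library alone, and 4 of the 6 that passed in both libraries were lower. No share of all features that passed in both libraries was computed to set beside these 6. The intervals of the sums hold counting error alone, and no test of the difference between these classes was run. Of all features, 83.9% reached 1 CPM in a library. CPM is not scaled for length, and longer transcripts offer more start positions, so the shares that reached 1 CPM are not like for like.

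The 10 lower transcripts stayed lower under each of the 4 other scalings run. Setting the libraries on TMM, median-of-ratios or upper-quartile factors, or on the total without the 4 most abundant features of the whole catalogue, raised every ratio by a factor of 1.31 to 1.44. The summed ratio then lay between 0.157 and 0.174. Over all features compared, lower ones made up 30.0% with TMM, 29.6% with median-of-ratios and 28.9% with upper-quartile factors, and higher ones 21.3%, 21.9% and 22.9%. Among the 12 transcripts each of these gave 10 lower and 1 higher. Without the 4 most abundant features in the total, 11 of 20 were lower, against 32.7% of all features, and 5 were higher, against 30.5%. Apart from the 110-base transcript with 25 and 64 reads, these higher ones had 0 or 1 reads at 30 days and 5 at 90 days. They passed the filter at 90 days alone, so a higher value was built in. The added lower transcript, with 6 and 0 reads, passed at 30 days alone. A pseudocount of 0.1 CPM gave 10 lower and 1 higher of 12, against 44.7% and 23.6%. With a minimum of 5 CPM, 6 of 7 were lower and 0 higher, against 46.8% and 14.5%. Among these lower ones only the 102-base transcript, with 8.69 CPM at 90 days, reached 5 CPM in both libraries. The others passed through the 30-day library alone, so their lower value was built in. At a 4-fold difference 6 of 12 were lower and 0 higher, against 9.06% and 1.49%.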

How the data were processed

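The authors deposited 1 table per library, which gives for each feature a count of uniquely assigned reads, a length, a coverage in percent of the length and an RPKM value, per the file headers. The deposited counts summed to the total in each header. The deposited RPKM equalled reads per kilobase scaled to that total within a relative tolerance of 1e-06, for the 77 of the 110 transcripts listed at 30 days and the 67 listed at 90 days. Per the submitters' processing notes, TopHat, Cufflinks and the build Sscrofa10.2 were used, in roles they do not state. No source used here gives the counting tool, the annotation, or the strand, depletion and size selection of the libraries.

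A feature absent from a table was given 0 reads there. CPM, the 2-fold rule and exact 95% intervals (Poisson for single counts, Clopper-Pearson for shares and ratios) were computed in Python 3.11.15 with scipy 1.17.1. TMM factors came from edgeR 4.0.16. The rule was tested on simulated data, with changes well beyond 2-fold in features more abundant than most of the compared transcripts. How well it recovers smaller changes or those of faint transcripts was not tested. Identifiers printed are those of the 2 largest and the 2 smallest log2 folds. Other transcripts described are the 10 with the most summed CPM and those with at least 20 reads in one library and 0 in the other. The 112-base transcript and the groups by 106, 107, 113, 116 and 117 bases were chosen after their values were seen. The members and lists were chosen with earlier results of these data known.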

Additional observations from a re-analysis of the deposited data

How the results depend on the processing

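The counts of higher and lower transcripts, their median log2 fold and the 12 single folds were recomputed under other scalings, pseudocounts and filters, the counts and single folds also under another threshold, and the summed ratio under other scalings. Shares, ranks, coverage and the values of longer Ensembl transcripts were not. No paired analysis was possible because there is 1 library per age, and for that reason no library could be left out. Against 0 higher transcripts with the library total, TMM, median-of-ratios and upper-quartile factors and a pseudocount of 0.1 CPM each gave 1, the 110-base transcript ENSSSCT00000020459. With the 4 most abundant features left out of the total there were 5 higher and 11 lower of 20 compared, as this raises every CPM against a fixed filter. The added higher and lower transcripts had at most 6 reads and passed in a single library, so their direction was built in. Against 10 lower, a minimum of 5 CPM gave 6 of 7 compared (46.8% of all features compared were then lower) and a 4-fold threshold gave 6 of 12 (9.06%). At 5 CPM all lower ones but the 102-base transcript passed through the 30-day library alone, so their lower value was built in. The median log2 fold of -2.00 became -1.83 with TMM, -1.82 with median-of-ratios, -1.79 with upper-quartile factors and -1.40 with the total without the 4 features. It became -3.36 with a pseudocount of 0.1 CPM, -3.08 with a minimum of 5 CPM and -0.089 without a filter, where all 110 transcripts enter. The summed ratio of 0.120 became 0.157 with TMM, 0.160 with median-of-ratios, 0.166 with upper-quartile factors and 0.174 with the total without the 4 features. Chosen after seeing the data, the sum without the 4 members with the most summed CPM gave 0.498, and the sum of the 98 members under 1 CPM gave 1.08 (0.817 to 1.44), on the other side of 1 but with an interval that holds 1. That interval is for the library total, and under each of the 4 other scalings the interval of the 98 lay above 1. Scalings shift every ratio by construction. A count of 0 in 1 library allows up to 3 reads, so differences of the 98 faint transcripts taken singly were not detectable at this depth.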
